A study of Mus musculus with 3 samples.

Results

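In all, 9 genes of the somite were followed through 14777 single cells of mouse embryos, chosen by their symbols among the 51923 genes of the count matrix. They are the transcription factor genes Tcf15, Meox1, Meox2, Pax1, Pax3, Foxd1, Foxd2 and Uncx, and the non-coding RNA gene Foxd2os, which starts beside Foxd2. All 9 were found in the matrix. The embryos were C57BL/6 mice carrying Mesp1-Cre, a recombinase active in early mesoderm, and the Ai9 red fluorescent reporter, so that descendants of Mesp1-expressing cells glow. Controls were Wls fl/+ and mutants Wls fl/fl at the Wntless gene, so both genotypes carried Cre, reporter and at least 1 floxed allele, and the deletion is limited to cells in which Cre has acted. The cells came from embryos of E8.0 (3 control and 3 mutant samples), E8.5 (2 and 1) and E9.5 (6 and 6), and 1 further control sample is labelled E7.5. A sample here is the set of cells that carry the same MULTI-seq barcode, a lipid-anchored tag added before the embryos were pooled. Reporter-positive cells were then sorted and captured on the 10x Chromium v3 system.

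Somites are blocks of paraxial mesoderm that bud in pairs from the presomitic mesoderm beside the neural tube. Each one forms as an epithelium. Its ventral part then loosens into the sclerotome, which gives vertebrae and ribs, and its dorsal part becomes the dermomyotome, which gives muscle and dermis. Tcf15 is needed for somite epithelium, Meox1 and Meox2 are homeobox genes of the whole somite, and Pax3 marks the dermomyotome and the dorsal neural tube. Pax1 and Uncx belong to the sclerotome, Uncx to its posterior part. Foxd1 and Foxd2 are forkhead genes of mesenchyme in trunk, head and kidney. Wls carries Wnt ligands to the cell surface, and Wnt signals from the ectoderm and neural tube, as well as hedgehog signals from the notochord, are known to pattern the somite.

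The 9 genes lie on 7 chromosomes of GRCm38. Tcf15 (chr2:152143561-152149097) and Pax1 (chr2:147361925-147393295) share chromosome 2. Foxd2 (chr4:114906282-114908873, minus strand) and Foxd2os (chr4:114909257-114921967, plus strand, annotated as a processed transcript) are transcribed away from each other, and their annotated starts are 384 bases apart without overlap. The others are Pax3 (chr1:78101267-78197134), Uncx (chr5:139543494-139548179), Meox1 (chr11:101877510-101894374), Meox2 (chr12:37108540-37179534) and Foxd1 (chr13:98354242-98359305). RefSeq promoter windows on GRCm38.p6 (300 bases, 250 before the start and 50 after it) were matched for 5 of the 9: Pax1, Foxd2, Uncx, Meox2 and Foxd1. A pair of upstream stretches is shown. The first fills most of the interval between Foxd2 and Foxd2os, neighbours described together below (chr4:114908899-114909148, minus strand, 250 bases). The second lies before Foxd1, the member found in the largest share of cells (chr13:98353995-98354241, plus strand, 247 bases). Both are written 5′ to 3′ in the direction of the gene, and capitals mark the GC box (GGGCGG or CCGCCC) and the TATA box (TATAA or TTATA).
Foxd2 upstream: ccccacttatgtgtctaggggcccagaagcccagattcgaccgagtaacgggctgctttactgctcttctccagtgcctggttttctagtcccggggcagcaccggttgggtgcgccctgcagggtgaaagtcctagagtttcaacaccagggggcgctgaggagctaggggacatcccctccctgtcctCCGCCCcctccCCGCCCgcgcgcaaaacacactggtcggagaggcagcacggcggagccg
Foxd1 upstream: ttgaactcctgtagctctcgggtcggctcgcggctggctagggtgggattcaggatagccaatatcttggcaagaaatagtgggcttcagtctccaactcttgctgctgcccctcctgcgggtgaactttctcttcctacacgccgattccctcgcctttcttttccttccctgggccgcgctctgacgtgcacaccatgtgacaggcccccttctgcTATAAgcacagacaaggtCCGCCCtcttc
A GC box was found in 4 of the 5 windows (Pax1, Foxd2, Meox2 and Foxd1) and in 35.7% of all 32851 RefSeq promoters. In Foxd2 its letters start 60 and 49 bases before the transcript start (positions -60 and -49). The letters TATAA stood in 3 of the 5 windows (Uncx, Meox2 and Foxd1), against 24.9% of all promoters, and in Foxd1 at position -32. Positions count from the RefSeq start. The 247-base Foxd1 stretch stops just before the gene's annotated start given above, a few bases short of the RefSeq one. On either strand, the TCF/LEF letters CTTTGA, the GLI letters GACCACCCA and the forkhead letters TGTTTAC were in 0 of the 5 windows, and in 16%, 0.253% and 3.65% of all promoters. The motifs do not overlap in the stretches shown, and a match describes letters only.

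The counts sum to 331587989 UMIs, with a median of 21739 per cell and 134457 to 61307782 per sample. Run 1 held all E8.0 samples, run 2 all E8.5 samples, and E9.5 lay in all 3 runs with both genotypes in each. Wls itself was at 35.9 to 65.4 CPM (UMI counts scaled to a common total per sample) in the controls of E8.0 to E9.5 and at 3.72 to 14.2 CPM in the mutants, without overlap. The sample labelled E7.5 control had 14.1 CPM, within the mutants' range and below all other controls. In this sample 3 counts amount to 6.04 CPM, and 17 of its cells lay in 1 blood-like cluster, so its genotype cannot be read from this level. A sample of 6 cells (E9.5 control, barcode Bar6) and one of 57 cells (E9.5 mutant, Bar5) were the smallest of E9.5, and the sample labelled E7.5 control had 28 cells and the smaller E8.5 control 34. At E8.0 the share of cells called male was 95.5 to 98% in the mutants and 2.70, 2.64 and 49.6% in the controls, so sex and genotype cannot be told apart there. In all, 23 cell barcodes occurred in more than 1 run.

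The 9 genes stood highest in different cell clusters. Cells were clustered without the 9 genes, and a cluster took a name only from other markers. The presomitic-like cluster (109 cells, led by Dll1, T and Hes7) already had Tcf15 at 326 CPM and Meox1 at 235 CPM, with Pax1 at 2.29 CPM. Tcf15 and Meox1 were highest in an unnamed cluster led by Wfdc21 and Aldh1a2 (260 cells, 254 of them from E8.0), at 740.3 and 481 CPM. Pax3 was highest in an unnamed cluster led by Dmrt2 and Myf5, genes of the dermomyotome and early muscle (586 cells), at 264 CPM. That cluster also held Tcf15 at 531 CPM and Meox2 at 118 CPM, while Pax1 was at 13.4 CPM.

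The sclerotome gene Pax1 and the dermomyotome gene Pax3 stood highest in different clusters. The Wfdc21 and Aldh1a2 cluster, mostly of E8.0, held both, with Pax3 at 109 CPM (found in 73.1% of cells) and Pax1 at 42.5 CPM (25.8%). In cluster 15, somite or sclerotome-like by its markers (473 cells), Pax1 stood at 252 CPM and Pax3 at 7.13 CPM. Cluster 16 (454 cells), with as many of the 7 somite or sclerotome markers raised (5) but none of them among its 10 leading genes and so unnamed, had Pax1 at 197 CPM. In cluster 22, the other somite or sclerotome-like cluster (328 cells), Pax1 was at 64.6 CPM. Its leading genes were Ndufa4l2 and Ddit4, known as stress and low-oxygen genes. At E9.5 cluster 15 held 440 control and 19 mutant cells, and cluster 22 held 1 control and 289 mutant cells, so these clusters largely separate the genotypes. Clusters 15 and 16 largely separate the runs. Cluster 15 had 457 cells from run 1, 8 from run 2 and 8 from run 3, and cluster 16 had 6, 292 and 156. Foxd1 was 454, 554 and 446 CPM in clusters 15, 16 and 22.

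Foxd1, Foxd2 and Foxd2os were also high in clusters with little Pax1. In an unnamed cluster led by Foxl2 and Lum (886 cells) Foxd1 was at 351 CPM, Foxd2 at 41.8 CPM and Foxd2os at 102 CPM, with Pax1 at 3.81 CPM. In another, led by Crym and Ebf1 (484 cells), Foxd1 was at 330.4 CPM and Foxd2os at 116 CPM, with Pax1 at 0.326 CPM. Of the 7 somite or sclerotome markers, 6 were raised in the first and 5 in the second, but none was among the 10 leading genes. Of the markers listed for cranial mesoderm, which include Ebf1, Foxl2 and Crym, 3 and 2 were raised, too few for that name. In a finer clustering (resolution 2) a cluster led by Foxl2 and Zic1 (305 cells) took it, with 4 of the 6 markers raised. So did the cluster led by Crym and Ebf1 (589 cells) in the second clustering below, also with 4. Outside these, Pax3 was at 85.3 CPM in neural-like cells (257 cells), in which its role in the dorsal neural tube is well known. Pax1 was at 14.7 CPM in endoderm or epithelium-like cells (204 cells), and the pharyngeal pouch endoderm is a known site of Pax1. Meox1 was at 162 CPM in a second heart field-like cluster (426 cells).

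**Figure D1:**
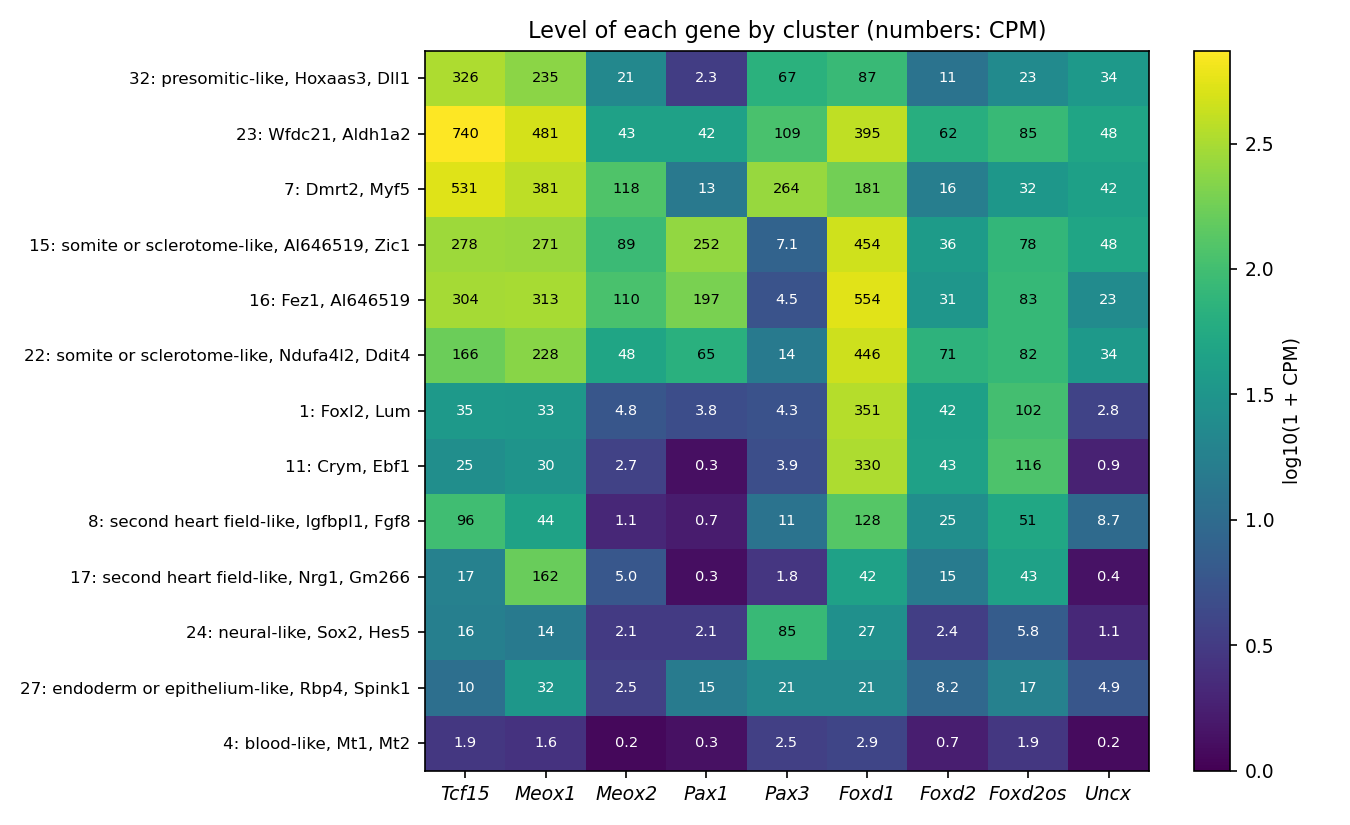
Level of the 9 genes (columns) in 13 of the 37 cell clusters (by cluster number, class name where given, and 2 leading genes). Colour is log10 of CPM plus 1 and the printed number is the CPM of the summed cluster. Tcf15 and Meox1 are bright from the presomitic-like cluster to the somite or sclerotome-like ones, Pax3 is brightest in the Dmrt2 and Myf5 cluster, Pax1 in clusters 15 and 16, and the Foxd1, Foxd2 and Foxd2os columns stay high in the Foxl2 and Crym clusters.

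The 9 transcripts were found in unequal shares of cells. To compare cells of unequal depth each cell was thinned to 5000 UMIs, which left 14330 cells (365 control and 82 mutant cells were shallower). Then 24.5% of cells had a Foxd1 UMI, 16.2% Meox1, 14.5% Tcf15, 11.6% Foxd2os, 5.72% Pax3, 5.52% Foxd2, 5.37% Meox2, 4.49% Pax1 and 2.23% Uncx. Blood-like cells, which should lack all 9, gave the background: 1.55% for Foxd1, 1.14% for Pax3, 1.09% for Tcf15 and 0.0909% for Uncx, with the other 5 between 0.182% and 1.05%. The share in all cells was above that background for each of the 9. Unthinned, the shares were 36.5% in all cells and 7.75% in blood-like cells for Foxd1, and 4.47% and 0.450% for Uncx. The median depth was 21739 UMIs in all cells, 28617 in the 2220 blood-like cells and 18268 in the 801 somite or sclerotome-like cells.

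The somite or sclerotome-like cells were those of clusters 15 and 22, without the unnamed cluster 16. These 2 clusters largely separate the genotypes, so the shares below are averages over unlike groups. Unthinned, Pax1 was found in 72.5% of cluster 15 and 30.2% of cluster 22, and Tcf15 in 90.1% and 55.2%. Among all cells of the class the thinned shares were 83.4% for Foxd1, 59.1% for Meox1, 56.1% for Tcf15 and 40.0% for Pax1. Foxd2os was found in 30.8%, Meox2 in 28.2%, Foxd2 in 18.6% and Uncx in 12.1% of them. Pax3 was found in 4.03%, the lowest of the 9, below its share in all cells. After thinning 8618 cells (60.1%) had none of the 9, 2424 (16.9%) had 1, and 3 cells had 8. Without thinning, 6025 cells (40.8%) had none and 10 cells had all 9.

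The genes met in the same cells more often than their shares within each sample predict. This held for 35 of the 36 pairs in thinned cells. Observed over expected numbers of cells ran from 1.20 (Pax3 and Foxd2os) to 5.88 (Pax1 and Uncx, 96 cells with both). Uncx was not confined to clusters high in Pax1. It stood at 47.8 CPM in cluster 15 and 47.7 CPM in the Wfdc21 and Aldh1a2 cluster. In the Dmrt2 and Myf5 cluster it was at 41.8 CPM, and in the presomitic-like cluster at 34.0 CPM. Tcf15 and Meox1 shared the most cells among the pairs without Foxd1, 1277 against 355 expected, and 61.5% of Tcf15 cells also had Meox1. Of the Pax1 cells, 71.5% had Tcf15 and 81.7% had Foxd1. Of the Pax3 cells, 61% had Tcf15. All pairs share the same cells and libraries, so the ratios are a description of the whole sort.

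Pax1 and Pax3 were the exception. In all, 32 thinned cells had both, against 37.8 expected, a ratio of 0.847. At deeper sampling the direction turned: the ratio was 1.28 in cells thinned to 10000 UMIs and 1.57 without thinning, so no avoidance of each other can be read from it. Without cells of at least 2 times their run's median depth it was 0.841. In E9.5 controls 17 cells had both against 22.5 expected, and in E9.5 mutants 4 against 5.29. No doublet caller was run, and the part of droplets with more than 1 cell was not tested.

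Foxd2 and its divergent neighbour Foxd2os were found together in 317 thinned cells, 3.26 times the expected number. Foxd2os was present in 40.1% of Foxd2 cells, and Foxd2 in 19.1% of Foxd2os cells. The ratio was 2.74 in E9.5 controls and 4.31 in E9.5 mutants, and this difference was not tested. Both genes also lay in cells with Foxd1, which was found in 67% of Foxd2 cells and 61.5% of Foxd2os cells. Whether the counting used strand is not stated, but the annotated transcripts of the pair do not overlap.

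**Figure D2:**
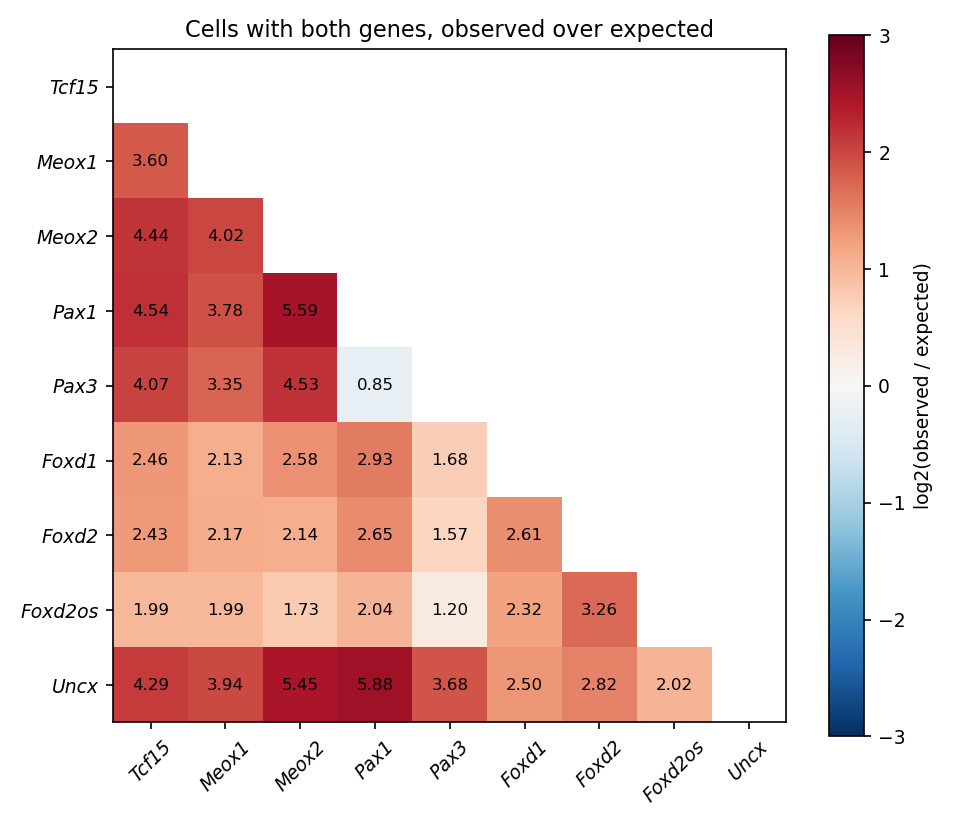
Observed over expected number of cells holding both genes of a pair, for the 36 pairs, in 14330 cells thinned to 5000 UMIs. Each square is 1 pair, the printed number is the ratio, and expected numbers come from the shares within each sample. Pairs with Pax1, Uncx or Meox2 reach above 5, and Pax1 with Pax3, at 0.847, is the square below 1.

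Among genes outside the 9, those most like each member over the 14330 thinned cells were found by Pearson's r of log(1 + UMI). The cells share libraries, so r is a description. Tcf15 was most like Fst (0.39), Arg1 (0.32) and Aldh1a2 (0.31), and Meox1 was most like Arg1 (0.36), Fst (0.31) and Foxc2 (0.28). Pax1 was most like AI646519 (0.42) and Arg1 (0.29). Pax3 was most like Dmrt2 (0.35), a dermomyotome gene, then Plch1 (0.33) and 2610016A17Rik (0.27). Foxd1 was most like Fst (0.41), which encodes follistatin, an inhibitor of activins and related ligands. Foxd2 reached 0.23 with Foxc2, and for Meox2 and Uncx no gene outside the 9 reached 0.2.

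With development, Meox2 and Pax1 rose, while a fall of Tcf15 was called in the fit of all samples but not within run 1. Meox2 was at 1.08, 3.78 and 1.94 CPM in the E8.0 controls and 3.41, 5.60 and 5.65 CPM in the E8.0 mutants. At E9.5 the controls with at least 20 cells had 18.5, 18.1, 9.05, 6.70 and 20.0 CPM and the mutants had 4.80 CPM at the lowest and 14.9 CPM at the highest. The stages overlapped in 1 mutant sample of E9.5. In a model of all 22 samples with stage and genotype as terms, Meox2 was higher at E9.5 than at E8.0 by 1.95 on the log2 scale (SE 0.32, edgeR adjusted p = 2.0e-04).

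Pax1 was at 0.720, 5.23 and 2.88 CPM in the E8.0 controls and 1.66, 5.99 and 4.67 CPM in the E8.0 mutants. By E9.5 the 5 larger control samples had 30.6, 32.8, 7.41, 3.35 and 16.2 CPM. Some E9.5 samples thus still lay within the E8.0 range, and 1 mutant of 57 cells had no Pax1 UMI. The fitted rise was 1.86 on the log2 scale (SE 0.43, edgeR adjusted p = 0.00375). Tcf15 moved the other way, from 64.5, 74.8 and 81.9 CPM in the E8.0 controls to 68.4, 77, 44.5, 21.4 and 41.6 CPM in the E9.5 controls, with a fitted change of -0.72 (SE 0.20, edgeR adjusted p = 0.0145). So 2 of the 9 were called higher and 1 lower, where 10.4% of the 20831 tested genes were called higher and 9.04% lower. The other 6 were not called, with log2 fold changes of 0.47 for Foxd1, 0.42 for Pax3, 0.38 for Uncx, 0.25 for Meox1, 0.20 for Foxd2os and 0.19 for Foxd2 (adjusted p from 0.226 to 0.622, edgeR).

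The stage calls of Meox2 and Pax1 were also made within run 1, and that of Tcf15 was not. In run 1, which held E8.0 and 5 E9.5 samples, Meox2 was higher by 2.04 (SE 0.32, edgeR adjusted p = 0.00107) and Pax1 by 2.19 (SE 0.46, adjusted p = 0.00460). Tcf15 had -0.44 there (SE 0.17, edgeR adjusted p = 0.0664) and missed the threshold, as it did with run as a further term, in controls alone and without the E8.0 mutant Bar28 (-0.58). In run 1 Pax3 (log2 fold change 0.71, SE 0.13, edgeR adjusted p = 0.00265) and Uncx (0.94, SE 0.29, adjusted p = 0.0275) were also higher at E9.5. So 4 of the 9 were called higher in run 1 and 0 lower, where 14.7% of 17577 genes were called higher and 15% lower. In mutants alone Pax1 had 1.14 (SE 0.42, edgeR adjusted p = 0.0922), short of the threshold, against 2.67 in controls alone (SE 0.59, adjusted p = 0.0240).

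At E8.0 no difference between genotypes was called for any of the 9. The E8.0 controls had 31.3, 72.5 and 64.2 CPM of Foxd1 and the mutants 61.6, 67.3 and 88.6 CPM, and the groups overlapped. Uncx was at 2.88, 2.79 and 3.63 CPM in controls and 3.96, 6.04 and 9.48 CPM in mutants, without overlap, with a fitted log2 fold change of 0.99 (SE 0.30, edgeR adjusted p = 0.496). Meox2 had 0.99 (SE 0.41, edgeR adjusted p = 0.501) and Pax3 0.45 (SE 0.18, adjusted p = 0.496). With edgeR 0 of 9 passed, 3 of them at an unadjusted p under 0.05, and with DESeq2 0 passed. Of all 16416 tested genes 0.0244% were called at this stage. The fitted values were positive for 8 of the 9, with a median of 0.38, against 0.01 for all genes, and Tcf15 stood at -0.01. The log2 fold changes were 0.40 for Foxd2os, 0.38 for Pax1, 0.33 for Meox1, 0.29 for Foxd1 and 0.22 for Foxd2. The control Bar24 (367 cells) had the lowest value of 7 of the 9 genes. Without it Pax1 (-0.025) and Foxd2 (-0.069) turned negative, Pax1 also without the mutant Bar27 (-0.0058), and Tcf15 turned positive without Bar26, Bar29, Bar25 or Bar27 (0.013 to 0.16).

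At E8.5 there was 1 mutant sample (487 cells), and no test of that stage alone was made. Against the larger control (2508 cells), Pax1 was at 11.1 CPM in the mutant and 22.3 CPM in the control, and their exact Poisson 95% intervals (9.15 to 13.3 and 21.1 to 23.5) did not overlap. The smaller control of 34 cells had 12.6 CPM (6.29 to 22.5), close to the mutant and overlapping both intervals. Meox1 was at 105 CPM in the mutant and 76.3 CPM in the control, Tcf15 at 80.0 and 90.4 CPM, and Foxd1 at 111 and 125 CPM. The intervals cover counting error only, and in the smaller control Foxd1 was at 53.8 CPM and Meox1 at 30.9 CPM, far from the larger one.

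At E9.5 Tcf15, Pax1, Foxd1 and Foxd2os were lower in Wls fl/fl embryos than in controls, with log2 fold changes of -0.71, -1.42, -0.93 and -1.17. These 4 of the 9 passed the test and none was higher, where 4.55% of the 17227 tested genes were called lower and 5.71% higher. All 9 passed the filter on low counts in this fit. The median over the 9 was -0.62, against 0.02 over all genes. A sample's level sums all of its cells, so fewer cells of a type and less RNA per cell cannot be told apart in these sums. The fits below hold all 12 samples of E9.5 with run as a covariate, and the group values leave out the control of 6 cells.

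Foxd2os, the non-coding neighbour of Foxd2, had the smallest p of the 9. Its level was 39.7 and 41.4 CPM in the run 1 controls and 18.6, 18.8 and 26.4 CPM in the controls of runs 2 and 3. In the 6 mutants the level was 2.16 CPM at the lowest, 15.6 CPM at the median and 20.3 CPM at the highest. In run 1 the genotypes did not overlap (16.6, 19.2 and 14.6 CPM in mutants), in run 2 the control stood above the mutant, and in run 3 the groups overlapped. The fitted log2 fold change was -1.17 (SE 0.15, edgeR adjusted p = 3.3e-04).

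Foxd2 itself, on the other side of the shared interval, was at 15.9, 17.8, 6.86, 3.35 and 8.99 CPM in controls. In the 6 mutants the level was 5.39 CPM at the lowest, 9.42 CPM at the median and 13.7 CPM at the highest. In run 1 the genotypes did not overlap, as for Foxd2os, since both controls (15.9 and 17.8 CPM) lay above the highest of the 6 mutants. Over all runs the groups overlapped, and the log2 fold change of -0.32 (SE 0.18) did not pass (edgeR adjusted p = 0.274). Runs 2 and 3 without run 1 gave 0.15, the opposite sign. Whether the log2 fold changes of the pair differ from each other was not tested.

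Pax1, the sclerotome gene, was at 30.6 and 32.8 CPM in the run 1 controls and 10.1, 7.78 and 9.32 CPM in the run 1 mutants. In run 3 it was at 3.35 and 16.2 CPM in controls and 13.7 and 4.27 CPM in mutants, and these overlapped. The means over samples of at least 20 cells were 18.1 ± 13.3 CPM in controls (SD, n = 5) and 7.54 ± 4.82 CPM in mutants (SD, n = 6). The fitted log2 fold change was -1.42 (SE 0.30, edgeR adjusted p = 0.0104). Leaving out either run 1 control took the call away, with log2 fold changes of -1.34 without Bar22 and -1.28 without Bar23. In run 1 alone it was -1.75 (SE 0.13, edgeR adjusted p = 0.00852), and in run 3 alone -0.41 (SE 0.62, adjusted p = 0.815).

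Foxd1 was at 148 and 144 CPM in the run 1 controls and 59.3, 80.0 and 78 CPM in the run 1 mutants. For the other runs the values were 76.3, 46.9 and 135 CPM (controls) against 12.9, 82.8 and 60.3 CPM (mutants), which overlapped. The mutant of 57 cells was the lowest of all, and the fit over all 12 samples gave -0.93 (SE 0.21, edgeR adjusted p = 0.0146). The call was lost without the run 3 control Bar9 (log2 fold change -0.82). Among cells with at least 1 Foxd1 UMI the mean level, from unthinned cells of unequal depth, was 319 ± 61 CPM in controls (SD, n = 5) and 273 ± 61.2 CPM in mutants (SD, n = 6). The thinned share of such cells was 25.9 ± 8.04% and 15.4 ± 6.90%.

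Tcf15, the gene of somite epithelium, was at 68.4 and 77 CPM in the run 1 controls and 34.5, 45.9 and 49.1 CPM in the run 1 mutants. For runs 2 and 3 the values were 44.5, 21.4 and 41.6 CPM (controls) against 14, 28.5 and 25.6 CPM (mutants), with overlap in run 3. The fitted log2 fold change was -0.71 (SE 0.14, edgeR adjusted p = 0.00798). It kept its call in each of the 12 fits that left out 1 sample, as Foxd2os did.

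The other 5 were not called. Meox1 lay between 15.9 and 74.6 CPM in controls and 21.9 and 68.2 CPM in mutants, and Uncx between 0 and 11.8 and between 0 and 8.70 CPM. Meox1 had a log2 fold change of -0.37 (SE 0.23, edgeR adjusted p = 0.349), Meox2 of -0.59 (SE 0.23, adjusted p = 0.114) and Uncx of -0.62 (SE 0.28, adjusted p = 0.180). Pax3, the dermomyotome gene, was at 25.1, 21.6, 8.85, 12.6 and 11.2 CPM in controls. In the 6 mutants the level was 1.60 CPM at the lowest, 18 CPM at the median and 25.9 CPM at the highest. Its groups overlapped throughout, and its log2 fold change of 0.01 (SE 0.28, edgeR adjusted p = 0.993) took a negative sign under several other settings, among them -0.20 with DESeq2. Run 3 alone, with 2 samples of each genotype, called 0 of the 8 members tested with edgeR, and 1 at an unadjusted p under 0.05, where 0.027% of 11111 genes were called lower and 0.495% higher. In runs 2 and 3 together 0 of 8 were called, where 0.0531% of 11301 genes were called lower and 0.894% higher. With so few genes called, a 0 there says nothing particular about the members. In those 2 runs 3 members had an unadjusted p under 0.05, and the log2 fold changes were -0.64 for Tcf15, -0.64 for Pax1, -0.86 for Foxd1 and -1.03 for Foxd2os. No other tool was run on these subsets.

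**Figure D3:**
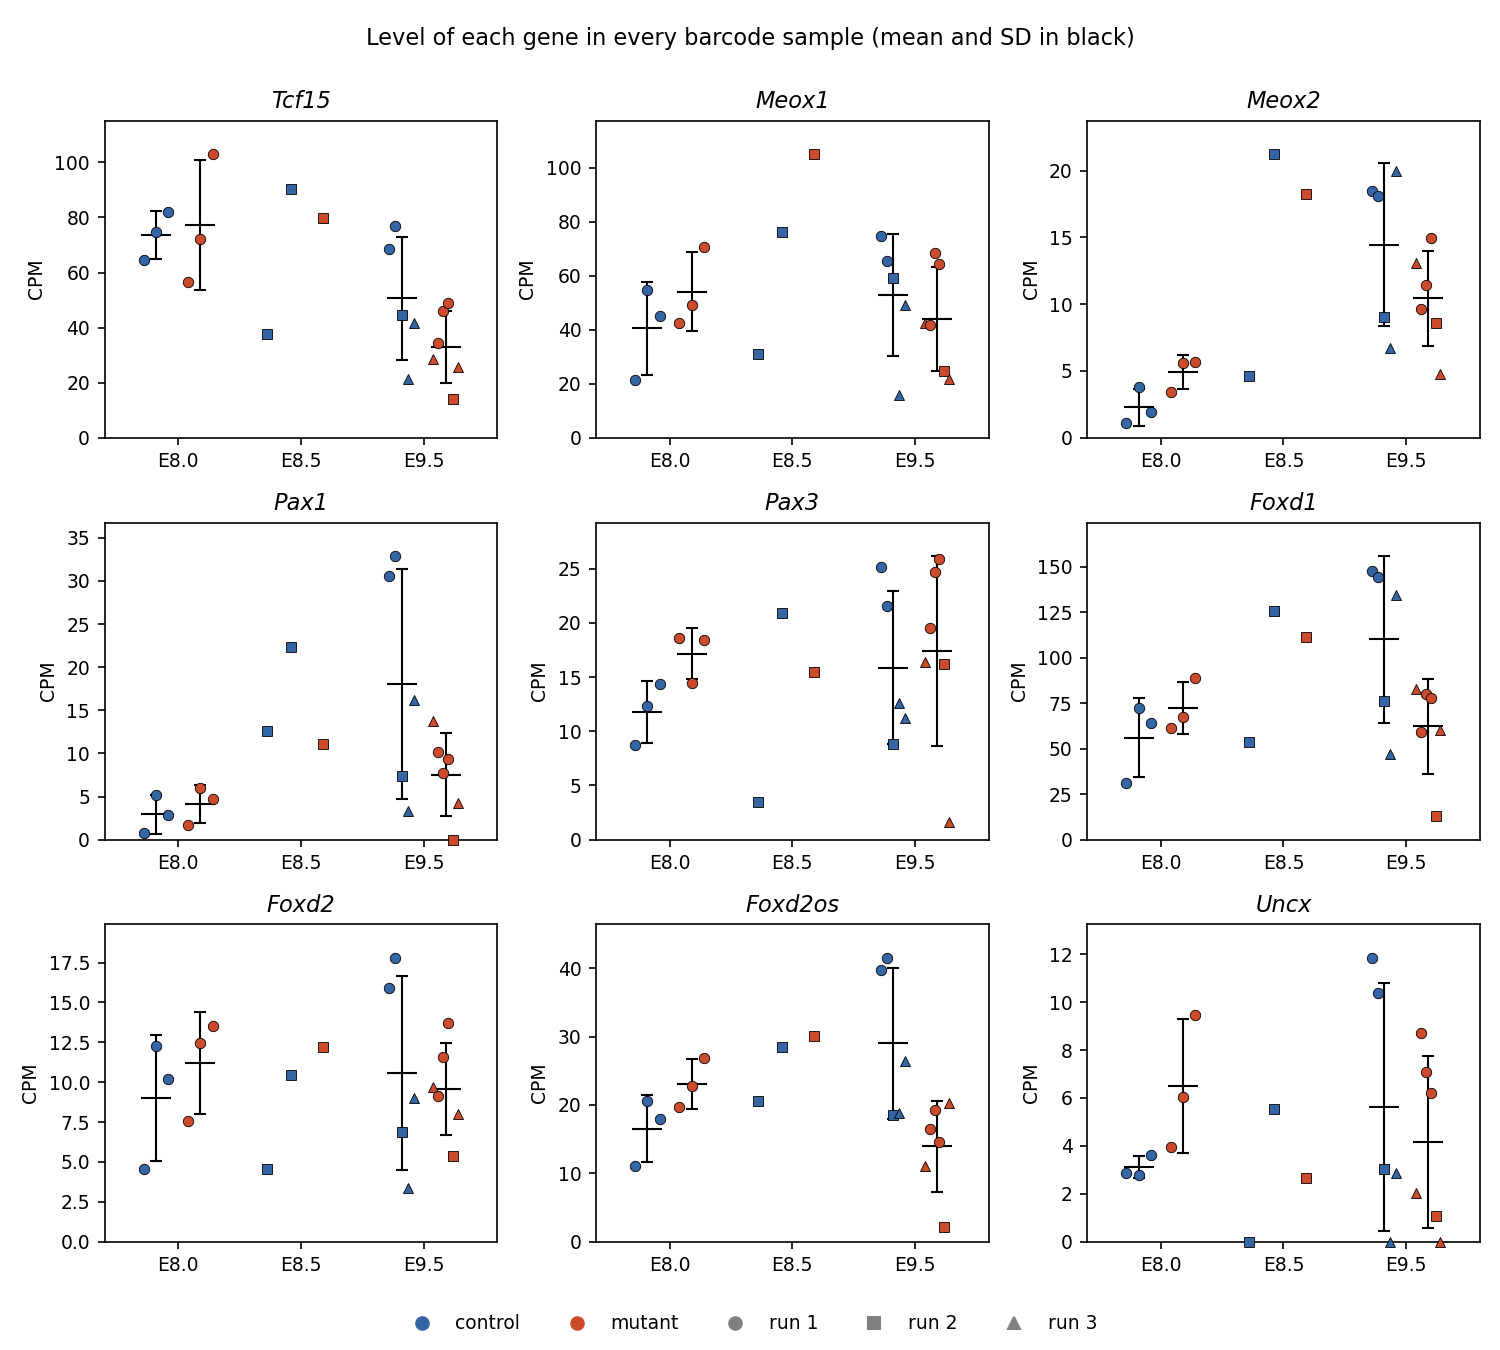
Level of each of the 9 genes (CPM, linear axis from 0) in the barcode samples of at least 20 cells at E8.0, E8.5 and E9.5, with controls in blue, mutants in red and the run as the shape of the point. Black bars are the mean and SD of groups of 3 or more samples, and the E7.5 sample and the 6-cell control are not drawn. At E9.5 the round run 1 controls of Foxd1, Foxd2os, Pax1 and Tcf15 lie above all mutants, while points of runs 2 and 3 overlap. Those of Meox2 and Foxd2, which were not called, also lie above all mutants.

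Some clusters rich in these genes also differed in size between the samples. A second clustering left out the genes called in any genotype test, besides the 9. Its somite or sclerotome-like cluster (1100 cells) held 12.2 and 12.4% of the cells of the run 1 controls and 5.21, 6.71 and 6.85% of the run 1 mutants. In runs 2 and 3 it held 3.29, 4.27 and 11% of the controls with at least 20 cells and 0, 9.64 and 4.76% of the mutants. The means were 8.65 ± 4.49% (SD, n = 5) and 5.53 ± 3.20% (SD, n = 6), a difference that did not pass (exact permutation test, two-sided, p = 0.217). With run as a term the difference was -3.48 percentage points, and permuting genotypes within runs, chosen after the data were seen, gave p = 0.0833 (exact, two-sided, 120 arrangements, smallest possible p 0.00833). In run 1 the groups did not overlap, and in run 3 they did. A cluster led by Ebf1, Lum and Foxl2, in which Foxd1 is high, held 17.3 and 19.4% of the run 1 controls and 5.44, 6.12 and 7.12% of the run 1 mutants, and 0.822, 3.66 and 3.12% and 1.75, 1.79 and 3.57% in the other runs. Another, led by Crym and Ebf1 and cranial mesoderm-like by its markers, held 0.215 and 0.0582% and 0.116, 0 and 0.411% in run 1, and 7.57, 8.54 and 13.8% and 1.75, 6.07 and 5.36% in runs 2 and 3. In run 1 the Dmrt2 and Myf5 cluster overlapped (6.40 and 5.24% of controls, 3.36, 4.52 and 7.26% of mutants). So did one led by Gm14226 and Cpa1, with Foxd1 at 142 CPM (5.22 and 4.65%, 3.94, 5.10 and 6.58%). One led by Wnt4 and Cxcl13, with Foxd1 at 140 CPM, did not (4.03 and 2.50%, 0.579, 2.19 and 1.92%). The part of all these clusters in the lower Foxd1 and Foxd2os of mutants was not tested.

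The genotype difference of E9.5 was set against that of E8.0 with an interaction term. All 9 differences were negative, and the median was -1.22 against -0.01 over all genes. Sex and genotype cannot be told apart at E8.0, and this fit had no term for sex. A change with stage thus cannot be told apart from a sex difference within the E8.0 samples. Foxd2os alone passed, with -1.56 (SE 0.27, edgeR adjusted p = 0.0120), in a comparison in which 0.0392% of the 17872 tested genes were called lower. At E8.0 it had been 11.1, 20.5 and 17.9 CPM in controls and 19.6, 22.8 and 26.8 CPM in mutants, the reverse order of means to E9.5. The call was also made in run 1 alone (-1.63, SE 0.27, edgeR adjusted p = 0.0494). Pax1 had -1.77 (SE 0.68, edgeR adjusted p = 0.309), Uncx -1.61 (SE 0.46, adjusted p = 0.146) and Foxd1 -1.22 (SE 0.38, adjusted p = 0.197), none of which passed. Nor did Meox2 at -1.56, Meox1 at -0.69, Tcf15 at -0.69, Foxd2 at -0.53 and Pax3 at -0.44. Over all stages with 1 common genotype effect edgeR called 0 of the 9, 3 at an unadjusted p under 0.05, and DESeq2 0, where 10.2% of 20831 genes were called. In that fit Pax1 had -0.80, Foxd2os -0.44, Foxd1 -0.40 and Tcf15 -0.36, and Uncx, Meox2, Foxd2, Meox1 and Pax3 lay between -0.08 and 0.10. Pax1 was called there without Bar24 and Tcf15 without Bar2.

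**Figure D4:**
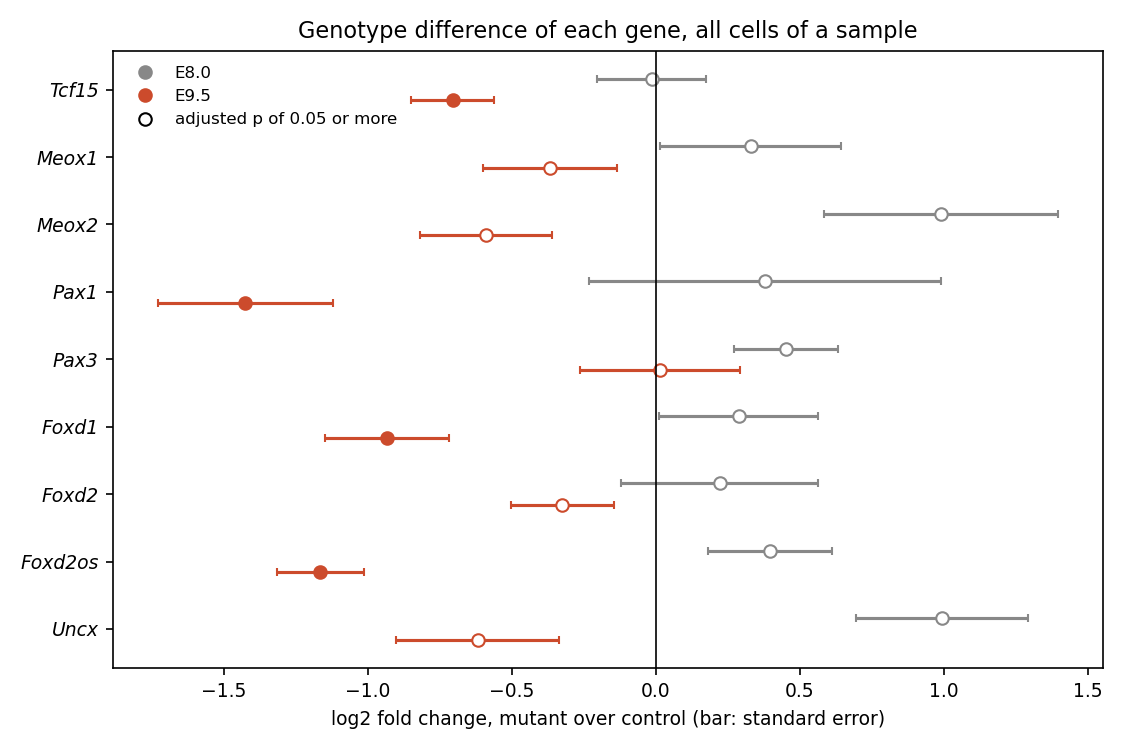
Fitted log2 fold change of mutant over control for each of the 9 genes at E8.0 (grey) and E9.5 (red), with the standard error as the bar. Filled points passed an edgeR adjusted p of 0.05. The 4 filled points are the E9.5 values of Tcf15, Pax1, Foxd1 and Foxd2os, and 8 of the 9 grey points lie above 0.

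Within somite or sclerotome-like cells at E9.5 the picture differed by gene. In the named class, with at least 20 such cells per sample, the 2 controls (Bar22 and Bar23) came almost wholly from cluster 15 and the 4 mutants (Bar19, Bar20, Bar21 and Bar10) from cluster 22. The class held 9.84, 10.6 and 14.9% of the cells of the run 1 mutants, where that of the second clustering held 5.21, 6.71 and 6.85%. For the 2 controls the shares were 12.3 and 11.8% against 12.2 and 12.4%. Which mutant cells of cluster 22 belong to the somite was not tested. Pax1 was at 252 and 263 CPM in the controls and 79.9, 83.2, 57.7 and 126 CPM in the mutants, without overlap, and its log2 fold change was -1.83 (SE 0.13, edgeR adjusted p = 5.2e-06). Meox2 (-0.83, SE 0.14, edgeR adjusted p = 0.00215) and Tcf15 (-0.91, SE 0.24, adjusted p = 0.0221) were also lower. Foxd2 was higher, at 30.7 and 41.9 CPM in controls and 58.7, 74, 72.8 and 42.1 CPM in mutants (0.91, SE 0.17, edgeR adjusted p = 0.00356). So 3 of the 9 were lower and 1 higher, where 10.7% of 11487 genes were called in each direction. In a wider set, the 7 clusters with at least 3 presomitic or somite markers raised (chosen after the data were seen), the balance was the other way. There 3 were higher (Meox1, Foxd2 and Uncx) and 1 lower (Foxd2os), where 9.27% of 12218 genes were called higher and 8.09% lower, and Tcf15, Meox2 and Pax1 were not called. The wide set also drew on different clusters in the 2 genotypes: at E9.5 cluster 1, in which Meox1 (33 CPM) and Uncx (2.82 CPM) are low, held 766 control and 44 mutant cells, and cluster 11 held 217 and 14. In cluster 22, with 1 control and 289 mutant cells, these genes stood at 228 and 33.9 CPM. The part of these splits between clusters in the values of either set was not tested. The run 3 control Bar9 had 9.88% of its cells in the unnamed cluster 16 and 0.508% in cluster 15, too few cells for the named class. In the named class Bar10 is the single sample of run 3 and, with run as a covariate, bears nothing on the genotype difference, so that fit compares 2 controls with 3 mutants of run 1. Pax1 kept its call in each of the 5 fits that left out 1 of these. Tcf15, Meox2 and Foxd2 lost theirs without Bar22 (log2 fold changes of -1.04, -0.72 and 0.72), and Tcf15 also without Bar23 (-0.70) or Bar19 (-0.83). Without Bar20, 7 members were called (5 lower and 2 higher), where 12.2% of 11643 genes were called in each direction.

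The cluster found without the genotype-test genes held both genotypes, with 4 controls (Bar22, Bar23, Bar4 and Bar9) against 4 mutants (Bar19, Bar20, Bar21 and Bar10) of at least 20 cells. This clustering was chosen after the data were seen. Foxd2 was at 30.7, 42, 38.4 and 21 CPM in the controls and 57.1, 79.8, 95.3 and 58.3 CPM in the mutants, which did not overlap, while its sum over all cells had not been called. The log2 fold change was 1.18 (SE 0.19, edgeR adjusted p = 7.0e-04), and it passed in each of the 7 fits that left out 1 sample other than Bar4. Bar4 is the single sample of run 2 here and, with run as a covariate, bears nothing on the difference, which rests on 3 controls and 4 mutants. In the E8.5 pair, which was not in the fit, Foxd2 was at 30.8 CPM in the control and 56.3 CPM in the mutant. Foxd2os, across the interval shown above, was at 72.8, 87.9, 69.5 and 50.3 CPM in controls and 58.5, 71.2, 63.9 and 37.5 CPM in mutants, overlapping, with -0.29 (SE 0.14, edgeR adjusted p = 0.169).

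Pax1 was lower within that cluster, with a log2 fold change of -0.70 (SE 0.14, edgeR adjusted p = 0.00265), also in each of these 7 fits. Its level was 253 and 255 CPM in the run 1 controls and 167, 129 and 123 CPM in the run 1 mutants. The run 2 control had 218 CPM, and in run 3 the control had 139 CPM and the mutant 146 CPM, so the difference was not seen in the single pair of run 3. In run 1 alone the log2 fold change was -0.84 for Pax1 (SE 0.12, edgeR adjusted p = 7.5e-04) and 1.14 for Foxd2 (SE 0.20, adjusted p = 0.00297). At E8.5 Pax1 in these cells was 227 CPM in the control and 115 CPM in the mutant.

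Tcf15 was lower (-0.39, SE 0.12, edgeR adjusted p = 0.0372) and Meox1 higher (0.37, SE 0.12, adjusted p = 0.0402) in the same cells, each losing its call in 4 of the 7 fits. The samples whose absence did this were Bar22, Bar23 and Bar21 for both, with Bar19 for Tcf15 and Bar20 for Meox1. The 2 lower and 2 higher members stood against 9.52% and 10% of 9722 genes. Foxd1, lower in the sums over all cells, was at 448, 434, 511 and 473 CPM in controls and 443, 544, 490.4 and 491 CPM in mutants here, with 0.17 (SE 0.09, edgeR adjusted p = 0.203). Meox2 had -0.08 (SE 0.12, edgeR adjusted p = 0.706), Uncx 0.56 (SE 0.21, adjusted p = 0.0727) and Pax3 0.36 (SE 0.35, adjusted p = 0.506). Meox2 thus passed in the named class only, and the 2 fits share samples.

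**Figure D5:**
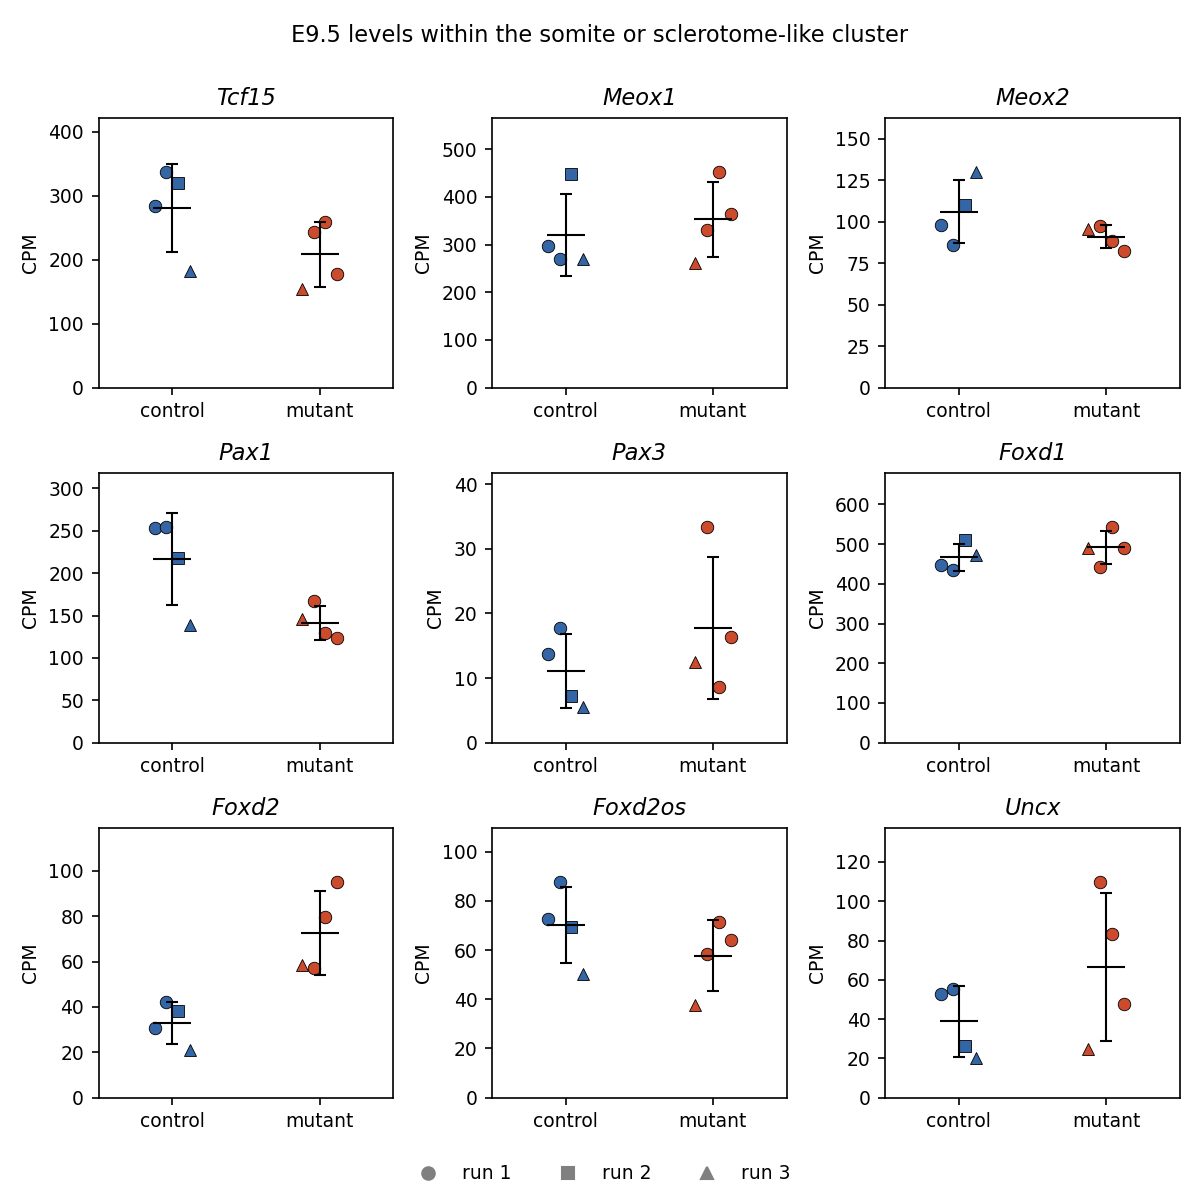
Level of each gene (CPM, linear axis from 0) in the E9.5 cells of the somite or sclerotome-like cluster that was found without the genotype-test genes, in 4 control and 4 mutant samples, with the run as the shape of the point and mean and SD in black. The mutants of Foxd2 lie above all controls, those of Pax1 lie below the controls of runs 1 and 2 but around the run 3 control, and Foxd1 overlaps.

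Other genes of the pathway were counted in the same fits of all cells, so a change need not lie in presomitic or somite cells. Cdx2 was also a leading gene of a lateral plate or allantois-like cluster (712 cells), and Tbx18 of the proepicardium-like one (552 cells). Hoxb1 was one in an unnamed cluster led by Lhx1 and Ifitm1 in the second clustering (564 cells). Which cells the changes came from was not tested. Of 12 tested somite and sclerotome genes outside the 9, 4 were lower in E9.5 mutants and none higher, where 4.55% of all tested genes were called lower and 5.71% higher. Among the 4 were Foxc1 (-0.82, SE 0.21, adjusted p = 0.0257), a forkhead gene of paraxial mesoderm, Col2a1 (-0.59, SE 0.13, adjusted p = 0.0109), a cartilage collagen, and Eya1 (-0.58, SE 0.18, adjusted p = 0.0490), all by edgeR. Their list's median was -0.41. Of 12 dermomyotome and myotome genes none was called, as for Pax3, and of 10 presomitic genes Hoxb1 was higher (0.59, SE 0.15, adjusted p = 0.0260 by edgeR). Among 12 hedgehog and BMP genes 1 was lower and 1 higher, the latter being Bmp4 (0.42, SE 0.12, adjusted p = 0.0343 by edgeR), counts too small to set apart from those shares. At E8.0 none of the lists had a call. The stage fit that follows had no term for run, and E8.0 lay in run 1 only. For the listed genes its calls are not given here within run 1 or with run added. Between E8.0 and E9.5, where 10.4% of all tested genes were called higher and 9.04% lower, 4 of 13 presomitic genes fell, led by Cdx2 (-3.0, SE 0.45, adjusted p = 9.1e-05) and Tbx6 (-1.57, SE 0.55, adjusted p = 0.0471), and none rose. Over the same interval 5 of 14 dermomyotome and myotome genes rose, led by Myog (3.63, SE 0.82, adjusted p = 0.00332) and Lbx1 (2.21, SE 0.39, adjusted p = 4.2e-04), and 2 fell, all by edgeR. The somite and sclerotome genes outside the 9 went both ways: 4 of 12 rose, among them Tbx18 (1.61, SE 0.32, adjusted p = 0.00119), Sox9 (1.34, SE 0.17, adjusted p = 1.3e-05) and Scx (1.31, SE 0.21, adjusted p = 1.7e-04), and 2 fell, Fst (-0.86, SE 0.23, adjusted p = 0.00971) and Foxc2 (-0.59, SE 0.19, adjusted p = 0.0339), by edgeR. Of 12 hedgehog and BMP genes 3 fell, among them Bmp4 (-0.77, SE 0.27, adjusted p = 0.0477) and Ptch1 (-0.55, SE 0.16, adjusted p = 0.0207), by edgeR, and none rose.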

How the data were processed

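RNA was counted in single cells of 22 barcode samples (12 control and 10 mutant) in 3 sequencing runs. Reads were mapped with kallisto and bustools 0.46.1, with Cell Ranger and GRCm38 also named, per the submitters' processing notes, and MULTI-seq barcodes were demultiplexed, per the labels. The filters on cells, the annotation and the use of strand are not given in the sources used here. The deposited matrix holds raw UMI counts with no normalization, and the authors' per-cell table gives run, barcode, stage and condition, whose wildtype and knockout were read as Wls fl/+ and Wls fl/fl. Whether a barcode marks 1 embryo is not stated, so p-values measure the spread between barcode samples, which may in part be technical. In the E8.0 control Bar29 the share of cells called male was 49.6%, and whether it holds cells of several embryos was not tested.

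UMI counts were summed per barcode sample and tested over all genes by two-sided quasi-likelihood F tests (edgeR 4.0.16, R 4.3.3), after filterByExpr and with TMM factors and Benjamini-Hochberg adjustment at 0.05, with run as a term in the genotype tests that span several runs, and checked on simulated counts. The test of E9.5 against E8.0 had stage and genotype as terms, and run was added as an alternative. DESeq2 1.42.0, RLE factors, no filter, run subsets, a sex covariate and leaving out each sample were alternatives. CPM is a gene's count scaled to its sample's total. 10x v3 counts 3′ ends, so CPM was not divided by length, and levels are compared between samples and clusters, not between genes. Clustering left out the 9 genes (Leiden, leidenalg 0.10.2, in scanpy 1.11.5 under Python 3.11.15): genes in at least 20 cells, 2000 variable genes, 30 components, 20 neighbours, resolution 1, 37 clusters. A cluster took a class name when at least 60% and at least 3 of the class's markers were raised by 1 on the log2 scale with 5 CPM added, and a marker was among its 10 leading genes, detected in 25% of cells. This rule was set after the data were seen, and 21 clusters were named. The second clustering also left out 2676 genes called in a genotype test (34 clusters). Doublets were not called. Shares were computed in cells thinned to 5000 UMIs, and Poisson intervals (95%) cover counting error only. All 9 members are named in every main test over all cells, but not in each set of clusters or at E8.5. Listed other genes are named where they pass, up to 5 per list by size, and as alike genes the 3 with the highest r of 0.2 or more. Some genes that these rules name are not reported here. Members and lists were chosen with earlier results of these data known.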

Additional observations from a re-analysis of the deposited data

Results flagged for a closer look

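In the E9.5 mutants the sample of 57 cells (Bar5) stood apart for Foxd1, at 12.9 CPM, while the other 5 lay between 59.3 and 82.8 CPM. In the E9.5 controls the sample of 6 cells (Bar6) stood apart for Pax3, at 59.5 CPM, while the other 5 lay between 8.85 and 25.1 CPM. That level is 8 UMIs, all in 1 of the 6 cells (exact Poisson 95% interval 25.7 to 117 CPM). Both passed Dixon's 95% criterion for 1 sample far from the rest. It was applied to 18 groups, and chance meets it in about 1 group in 20. The log2 genotype difference of Foxd2os changed between the stages, by -1.56 from E8.0 to E9.5 (SE 0.27, edgeR adjusted p = 0.0120). At E8.0 sex and genotype cannot be told apart, and that fit had no term for sex.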

How the results depend on the processing

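Of the 4 members called lower at E9.5, the count was 7 with no filter on low counts (3.81% of all genes called lower), 0 in run 3 alone (0.027%) and 0 in runs 2 and 3 (0.0531%), and 3 to 4 when each sample was left out (1.29 to 5.99%). It was 4 in run 1 alone (3.07%), with DESeq2 (8.98%), RLE factors (4.68%) and the male share as a covariate (3.4%), and without blood, megakaryocyte and endothelial clusters (6.67%). Pax3 at E9.5 turned to -0.033 with no filter, -0.20 with DESeq2, -0.40 in run 3, -0.067 in runs 2 and 3, -0.11 with the male share, and -0.13 to 0.18 with 1 sample left out. Foxd2 turned to 0.18 in run 3 and 0.15 in runs 2 and 3. With 1 sample left out at E8.0, Tcf15 ranged from -0.26 to 0.16, Pax1 from -0.025 to 1.10 and Foxd2 from -0.069 to 0.53. There 0 to 0 members were called, where 0 to 0.0478% of all genes were called higher and 0.00583 to 0.0239% lower. Over all stages 2 were called lower without E8.0 (6.04% of all genes), and 0 to 1 with 1 sample left out (3.54 to 7.12%). The change of the genotype difference was called lower for 7 members with no filter (0.763% of all genes), for 2 with DESeq2 (Foxd2os and Uncx, 1.24%), and for 1 to 1 with 1 sample left out (0.00538 to 0.125%). Between the stages 2 to 3 were called with 1 sample left out, where 7.46 to 10.9% of all genes were called higher and 6.49 to 10.8% lower. In mutants alone Meox1 was -0.079, Foxd1 -0.031, Foxd2os -0.49 and Uncx -0.11. The cause of these changes was not tested.

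Within somite or sclerotome-like cells the choice of clusters mattered most to the sign. In 7 clusters with presomitic or somite markers, a set chosen after the data were seen whose clusters differ between the genotypes, Tcf15 was 0.26, Meox1 0.71, Meox2 0.19, Foxd1 0.092 and Uncx 0.87, while Pax1 was -0.43 (edgeR adjusted p = 0.141). In the cluster found without genotype-test genes Meox1 was 0.37, Foxd1 0.17 and Uncx 0.56. With 1 mutant left out the named class gave 3 to 7 calls, where 8.23 to 12.2% of all genes were called higher and 8.03 to 12.2% lower. With any 1 sample left out Meox1 was -0.45 to 0.012 in that class, Foxd1 -0.12 to 0.0035 and Foxd2os -0.29 to 0.00034. The cluster found without genotype-test genes then gave 2 to 4 calls (3.94 to 11.4% of all genes higher and 3.65 to 10.3% lower) and Pax3 -0.16 to 0.69.

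Shares of cells rose with depth. Unthinned they were 23.1% for Tcf15, 28.6% for Meox1, 11.6% for Meox2, 7.5% for Pax1, 11.7% for Pax3, 36.5% for Foxd1, 15.5% for Foxd2, 26.7% for Foxd2os and 4.47% for Uncx. Thinned to 10000 UMIs they were 22.6% for Meox1, 8.5% for Meox2, 8.40% for Pax3, 9.53% for Foxd2 and 18.3% for Foxd2os. Pax1 and Pax3 were found together 1.57 times the expected number unthinned and 1.28 times at 10000 UMIs. No paired analysis was possible because the barcodes carry no replicate number shared between genotypes. Uncx was not tested in run 3 alone or in runs 2 and 3, since it failed the filter there. The smallest samples allow little: in the one of 57 cells, 3 counts amount to 3.23 CPM, so its 0 UMIs of Pax1 do not show absence.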

Other observations

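The sample labelled E7.5 control (28 cells), whose Wls level of 14.1 CPM lay within the mutants' range, was set against no other sample, and stood in the fits of all stages as a stage of its own. It had 23 Foxd1 UMIs (46.3 CPM, exact Poisson 95% interval 29.4 to 69.5) and 6 of Foxd2os (12.1 CPM). Pax3 had 3 UMIs, Meox1 and Foxd2 2 each and Tcf15 and Meox2 1 each. Pax1 and Uncx had 0, and 3 counts in this sample amount to 6.04 CPM.

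Among the blood-like clusters, 1 of 67 cells with a median of 34160 UMIs held the members well above the other blood-like cells, with Foxd1 at 69.6 CPM, Meox1 at 45.4 CPM, Tcf15 at 26.4 CPM and Pax1 at 16.8 CPM. In blood-like cells as a whole, these 67 included, Foxd1 was at 5.03 CPM, and in the other blood-like clusters it lay between 0.700 and 5.67 CPM. Whether these 67 cells are droplets of more than 1 cell was not tested.

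Within the cluster found without genotype-test genes, other genes of the listed pathways also differed at E9.5 by edgeR. There 10% of 9722 genes were called higher and 9.52% lower. The genes are named by their calls, and the calls of each list were not counted, so nothing about the lists can be read from them. Higher in mutants were Fst (0.94, SE 0.13, adjusted p = 2.0e-04), Ptch1 (0.80, SE 0.12, adjusted p = 3.5e-04), a hedgehog receptor and target, Foxc2 (0.61, SE 0.13, adjusted p = 0.00493) and Sox9 (0.42, SE 0.08, adjusted p = 0.00275), a gene of cartilage precursors. Col2a1 was lower both in the sums over all cells and within the cluster (-0.58, SE 0.19, adjusted p = 0.0452 within the cluster).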
